A study of Arabidopsis thaliana with 18 samples.

Results

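The loci that gain or lose 22-nt small RNAs when wild-type Arabidopsis thaliana seedlings (accession Col-0) grow on the hormone abscisic acid (ABA) were compared over the whole deposited table. The comparison used 6 of the 18 libraries of the series: 3 Col-0 libraries from medium with 1 µM ABA and 3 Col-0 libraries from MS medium without it, all from whole seedlings 14 days old. Both groups are the wild type, with DCL4 and DCL2 present, and the replicates are biological per the labels. The growth field of the same labels instead gives aerial parts of soil-grown, 20-day-old, untreated plants, and here each library was taken as its own genotype, medium and age labels describe it. The other 12 libraries came from dcl4-2 (no DCL4) and dcl4-2 dcl2-1 (no DCL4 and no DCL2) on the same media. They helped to choose the loci tested and to estimate the spread. They also served to test whether an ABA effect differed from that of Col-0. The labelled tissue could not be checked against cell type markers, since 22-nt reads do not measure mRNA. In bulk seedlings, fewer cells of a type and less small RNA per cell cannot be told apart.

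Dicer-like enzymes cut double-stranded RNA into small RNAs of set lengths. DCL4 makes the shorter class that dominates silencing of transcripts in wild-type plants, while DCL2 makes the 22-nt class, which can recruit RDR6 and start further rounds of small RNA production on a target transcript. In plants without DCL4, 22-nt small RNAs accumulate at a few highly transcribed genes, the nitrate reductases among them. ABA is the hormone of drought and osmotic stress, and it slows seedling growth. Reads of 22 nt at a MIRNA locus, in contrast, stem mostly from DCL1, which cuts microRNA hairpins.

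Levels are given in RPM, reads of the locus per mega (M) reads of the library, with no correction for gene length, for each of the libraries A, B and C of a group, lettered by falling depth. The ABA libraries held 1.53 to 2.19 M reads and the MS libraries 0.581 to 0.978 M, so a single read was worth 0.457 to 0.653 RPM on ABA and 1.02 to 1.72 RPM on MS. Of these reads, 39438 to 52346 per ABA library and 11579 to 18018 per MS library were 22-nt reads in annotated loci. Of 32420 loci in the table, 13109 had a 22-nt read in at least 1 Col-0 library, 11055 of them on ABA and 7558 on MS. The loci with at least 1 RPM in at least 3 of the 18 libraries, 5697 in number, were tested with limma on log2(RPM + 1), and a locus passed at a Benjamini-Hochberg adjusted p under 0.05. On this test 18 loci (0.316%) had more 22-nt reads on ABA and 22 loci (0.386%) had fewer, together 0.702% of those tested. At such shares, a short list in which no locus passed is no result about its members. As the filter ran over all 18 libraries, some tested loci, AT2G03500 among them, had no read in Col-0. Such loci cannot pass but count in all shares of tested loci.

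The microRNAs and target sites that recur among these loci are shown first. The loci with more 22-nt reads included 5 MIRNA genes, and their mature sequences from the RefSeq annotation of the TAIR10.1 genome are given 5′ to 3′ with the seed (bases 2 to 8) in capitals. MIR319a and MIR319c share a seed, and each of the other sequences has a seed of its own.
miR319c (MIR319c, chr2:17029870-17029890, plus strand): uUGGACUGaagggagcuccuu
miR319a (MIR319a, chr4:12353109-12353129, plus strand): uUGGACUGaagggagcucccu
miR159b-3p (MIR159b, chr1:6220813-6220833, plus strand): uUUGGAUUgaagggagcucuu
miR400 (MIR400, chr1:11785947-11785967, plus strand): uAUGAGAGuauuauaagucac
miR403-3p (MIR403, chr2:19415154-19415174, plus strand): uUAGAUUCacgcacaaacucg
miR403-5p (MIR403, chr2:19415077-19415098, plus strand): uGUUUUGUgcuugaaucuaauu
Of these only miR403-5p is annotated with 22 nt, the others with 21 nt. The table counts 22-nt reads per locus and does not give their sequence, so the arm and the exact ends behind a MIRNA value are not known.

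Among the 22 loci with fewer 22-nt reads, 10 (45.5%) had in their longest transcript a site complementary to an annotated microRNA with a mismatch score of at most 3, counting a mismatch as 1 and a G:U pair as 0.5, over 349 mature sequences. The share was 17.2% of the 2891 tested protein-coding loci and 14.5% of all 26637. Transcripts of the lower loci also came from longer genes, with a median span of 4281 bases against 2422 bases for tested protein-coding loci, and the part of gene length in the share of sites was not tested. A match of this kind is a description of the sequence. The class III HD-ZIP genes carried a site across an exon junction for miR165a-3p (score 2.5) and miR166a-3p (score 3.0), which share the seed in capitals.
miR165a-3p (MIR165a, chr1:78932-78952, minus strand): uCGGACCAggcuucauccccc
miR166a-3p (MIR166a, chr2:19176241-19176261, plus strand): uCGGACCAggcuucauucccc
REV site (chr5:24398787-24398898, plus strand, with 1 exon junction inside): ctgggatgaagcctggtccgg
PHB site (chr2:14642530-14642666, minus strand, with 1 exon junction inside): ttgggatgaagcctggtccgg
The site in HB-8 has the letters of the REV site and that in PHV those of the PHB site. The lowest score among the lower loci was that of AGO2, whose microRNA miR403-3p comes from a locus on the higher side (score 1.0). ARF10 carried a site for miR160a-5p (score 2.0).
AGO2 site (chr1:11185223-11185243, plus strand): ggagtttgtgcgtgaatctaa
ARF10 site (chr2:12115741-12115761, plus strand): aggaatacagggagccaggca
ARF6 and ARF8 held sites for miR167 (scores 2.5 and 3.0), GUN5 for miR395a (2.0) and SMXL5 for miR414 (2.5). Of the 5 protein-coding loci on the higher side, 0 had a site under the same rule.

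The loci with fewer 22-nt reads on ABA were all protein-coding genes. Among them were 4 class III HD-ZIP transcription factors, SMXL3, SMXL4 and SMXL5, the nitrate assimilation genes NIA1, NIA2 and GLT1, and genes of separate roles. Summed over the 22 loci, the level was 152, 101 and 143 RPM in the ABA libraries, against 1564, 489 and 2758 RPM in the MS libraries. The ratio of ABA to MS was 0.0823. The 22 loci were picked by the limma test for lower values in these same libraries, so their sum is a description and no further test. Without the nitrate reductases, the other 20 loci together stood at 14.3 ± 2.67 RPM on ABA and 698 ± 492 RPM on MS (SD, n = 3 each), a ratio of 0.0205. Of the 22 loci, 8 had no read in any ABA library and 19 had every ABA library below every MS library, which held for 2.95% of tested loci. A high share is built into the choice of these loci.

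**Figure D1:**
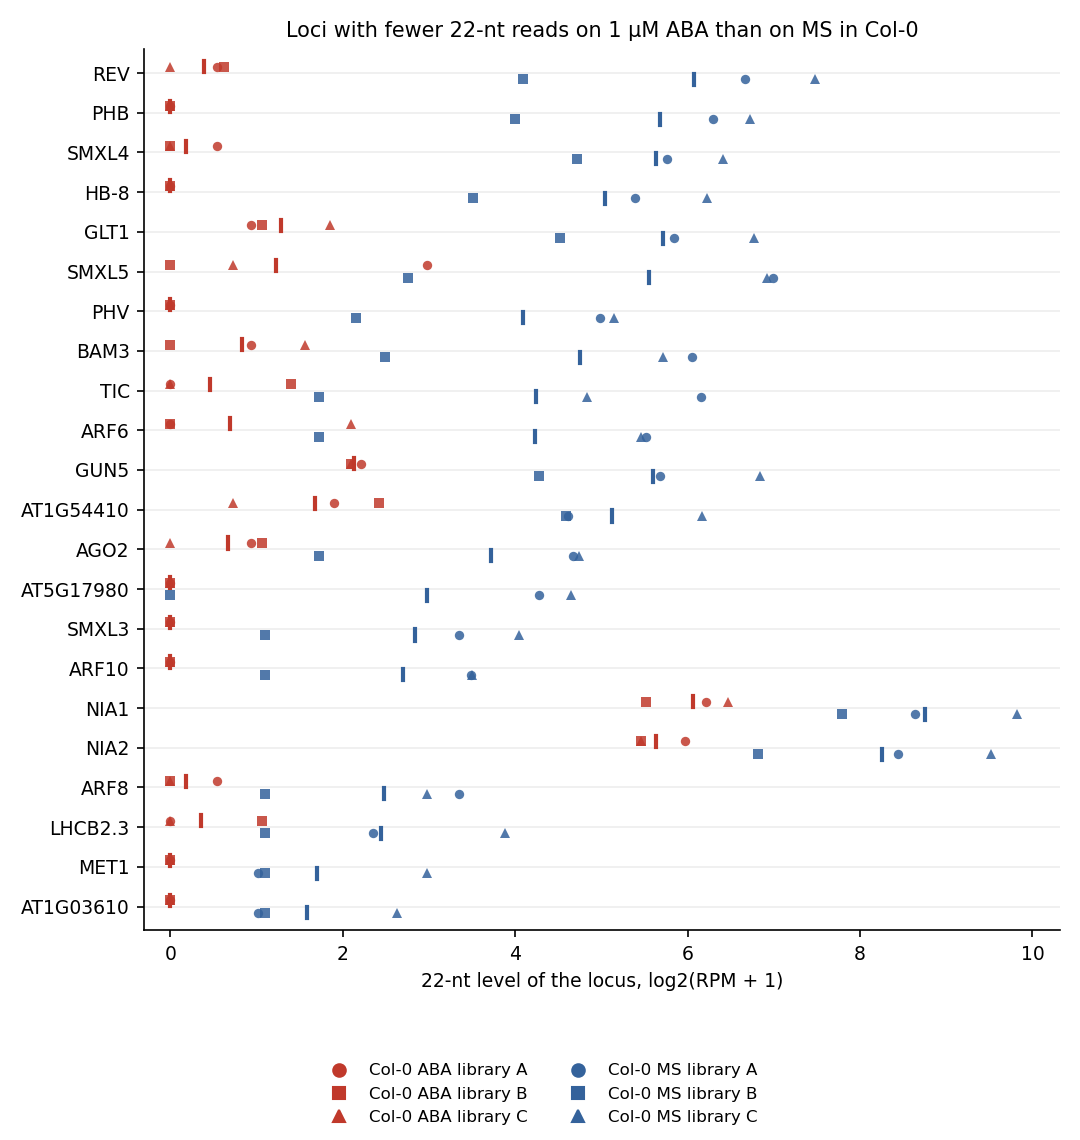
The 22-nt level of each of the 22 lower loci in each Col-0 library, on a log2(RPM + 1) axis; red marks are ABA libraries, blue marks MS libraries, the symbol gives the library (A circle, B square, C triangle) and a vertical bar the mean of 3 log values. PHB, HB-8 and PHV sit at 0 in all ABA libraries, while the nitrate reductases keep 43.1 to 87.5 RPM on ABA, and MS library B is the lowest MS library at 20 of the 22 loci.

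REV, a class III HD-ZIP transcription factor that sets the upper side of leaves and patterns vascular tissue, is at chr5:24396981-24402195 (AT5G60690). It had 0.457, 0.546 and 0 RPM in the ABA libraries, against 100.2, 16.1 and 177 RPM in the MS libraries. These are 2 reads on ABA in all, and the lowest MS library still lay far above the ABA libraries. Its mean of 0.334 ± 0.293 RPM on ABA stood against 97.9 ± 80.7 RPM on MS (SD, n = 3 each), a log2 difference of -5.69 (SE 0.76, limma adjusted p = 4.62e-08). Its close relative PHB (AT2G34710, chr2:14639323-14644355) had no read on ABA, against 77.7, 15 and 105 RPM on MS. Taking 3 reads over the ABA libraries as the limit that a count of 0 allows (0.540 RPM, or 0.892 RPM without ABA library A, which lowers each such limit by the same factor), PHB was at least 122-fold lower on ABA (limma adjusted p = 4.62e-08). HB-8 (AT4G32880), which acts in the cells that become veins, also had no read on ABA, against 40.9, 10.4 and 74.1 RPM on MS, and was at least 77.3-fold lower (limma adjusted p = 1.36e-08), or 47.4-fold without MS library C. PHV (AT1G30490), the closest relative of PHB, had 0 on ABA and 30.7, 3.45 and 34.4 RPM on MS, at least 42.3-fold lower (limma adjusted p = 1.12e-05). The fifth member, ATHB-15 (AT1G52150), stayed under the filter, with 0 on ABA and 2.05, 0 and 10.3 RPM on MS. All 4 tested members thus fell, and their calls held without each of the 6 libraries in turn. PHB and PHV have 125 22-mers in common, about 2.5% of either gene, and reads from those stretches cannot be told apart.

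The SMXL genes encode relatives of the strigolactone signalling repressors, and SMXL3, SMXL4 and SMXL5 act in phloem formation. These 3 fell, of 5 members tested and 8 in the family. SMXL4 (AT4G29920, chr4:14632413-14636101) had 0.457, 0 and 0 RPM on ABA, against 53.2, 25.3 and 84.4 RPM on MS. That is a single read over the ABA libraries, and the log2 difference was -5.45 (SE 0.79, limma adjusted p = 3.66e-07). SMXL5 (AT5G57130) had 6.85, 0 and 0.653 RPM on ABA, against 126, 5.76 and 121 RPM on MS. Here ABA library A lay above MS library B, so the groups overlapped, and the log2 difference was -4.32 (SE 0.86, limma adjusted p = 0.00111). SMXL3 (AT3G52490) had no read on ABA, against 9.20, 1.15 and 15.5 RPM on MS, at least 16-fold lower (limma adjusted p = 0.00131), or 9.58-fold without MS library C. SMAX1 (AT5G57710), the karrikin signalling member, averaged 0.922 RPM on ABA and 0.958 RPM on MS and did not pass. BAM3 (AT4G20270), a receptor kinase of the phloem lineage, had 0.913, 0 and 1.96 RPM on ABA, against 65.4, 4.60 and 51.7 RPM on MS, a log2 difference of -3.92 (SE 0.82, limma adjusted p = 0.00199). The list of phloem and vascular regulators has 9 members, of which 4 were tested, namely BAM3 and the 3 SMXL genes above. These 4 fell, where 0.386% of all tested loci did. The list was chosen with earlier results of these data known and repeats the SMXL genes, so it is no separate support. SMXL3 passed the filter through its Col-0 MS libraries. Leaving out ABA library B, MS library A or MS library C raised the adjusted p of SMXL5 and BAM3 to at most 0.0984, while SMXL3 and SMXL4 kept their calls whichever 1 of the 6 libraries was left out.

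NIA1 and NIA2 encode nitrate reductase, the first enzyme of nitrate assimilation, and were the most abundant of the lower loci. NIA1 (AT1G77760, chr1:29235721-29239484) had 73.1, 44.8 and 87.5 RPM on ABA, against 399, 219.9 and 906 RPM on MS. NIA2 (AT1G37130, chr1:14158452-14161938) had 61.6, 43.2 and 43.1 RPM on ABA, against 348, 112 and 732 RPM on MS. Unlike the HD-ZIP and SMXL genes, both kept a measurable level in every ABA library, and the groups did not overlap. Log2 differences were -2.69 (SE 0.37, limma adjusted p = 9.54e-08) for NIA1 and -2.63 (SE 0.44, limma adjusted p = 2.23e-05) for NIA2. Together the pair took 0.460% of all 22-nt RPM in loci on ABA and 5.01% on MS, or 3.14% on MS without library C. The call of NIA2 was lost without MS library C (adjusted p = 0.0558), and that of NIA1 was kept whichever 1 library was left out.

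GLT1 (AT5G53460), the NADH-dependent glutamate synthase that works further along the same pathway, had 0.913, 1.09 and 2.61 RPM on ABA, against 56.2, 21.9 and 109 RPM on MS. The groups did not overlap, the log2 difference was -4.43 (SE 0.80, limma adjusted p = 0.000132), and the call held whichever 1 library was left out. GLT1 was the 1 gene that passed among 9 tested from the list of nitrogen uptake and assimilation, where 0.702% of all tested loci passed. The most abundant of the others were the plastid glutamine synthetase GS2 (2.13 ± 1.78 RPM on ABA and 10.03 ± 6.35 RPM on MS), the ferredoxin-dependent glutamate synthase GLU1 (4.07 and 5.88 RPM) and the asparagine synthetase ASN1 (2.69 and 4.09 RPM). None of these 3 passed.

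ARF6, ARF8 and ARF10, transcription factors of auxin-responsive genes, passed as well, with MS means of 5.75 to 30.1 RPM. They are named because they passed, and the auxin response factors were not examined as a list. ARF6 had 0, 0 and 3.26 RPM on ABA, against 45.0, 2.3 and 43.1 RPM on MS, so ABA library C lay above MS library B (log2 difference -3.54, SE 0.73, limma adjusted p = 0.00196). ARF10 had no read on ABA, against 10.2, 1.15 and 10.3 RPM on MS, at least 13.4-fold lower (limma adjusted p = 0.00866). ARF8 had 0.457, 0 and 0 RPM on ABA, against 9.20, 1.15 and 6.89 RPM on MS (limma adjusted p = 0.0244). The auxin receptor genes, TIR1 and its AFB relatives, summed to 0.522 RPM on ABA and 0 RPM on MS, with 0 of 3 tested members passing. ARF10 shares 22-mers with 295 other loci, so part of its reads may be theirs. ARF8 and ARF10 were called only with all libraries or without MS library B, and ARF6 was not called without ABA library A or B or MS library A or C (adjusted p at most 0.204 for ARF8, 0.123 for ARF10 and 0.0985 for ARF6).

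The remaining 8 lower loci have separate roles. AGO2 (AT1G31280), an Argonaute that binds small RNAs in antiviral defence, had 0.913, 1.09 and 0 RPM on ABA, against 24.5, 2.3 and 25.8 RPM on MS, without overlap (log2 difference -3.05, SE 0.71, limma adjusted p = 0.00971). It was the 1 called gene of 4 tested in the list of silencing machinery, where AGO1 averaged 1.59 RPM on ABA and 0 RPM on MS, AGO3 0 and 1.83 RPM, and DCL1 1.5 and 1.26 RPM. GUN5 (AT5G13630), the H subunit of the magnesium chelatase of chlorophyll synthesis, had 3.65, 3.28 and 3.26 RPM on ABA, against 50.1, 18.4 and 114 RPM on MS (limma adjusted p = 0.0244). The dehydrin gene AT1G54410 had 2.74, 4.37 and 0.653 RPM on ABA, against 23.5, 23 and 70.6 RPM on MS (limma adjusted p = 0.00996). In each of these the lowest MS library was above the highest ABA library, and the adjusted p reached at most 0.243 for GUN5 and 0.204 for AGO2 and AT1G54410 with 1 library left out, MS library C among them. TIC, a component of the circadian clock, averaged 0.546 RPM on ABA and 33.5 RPM on MS. MET1, the methyltransferase that maintains CG methylation, had no read on ABA and 1.02, 1.15 and 6.89 RPM on MS. LHCB2.3, a light-harvesting protein of photosystem II, had 0, 1.09 and 0 RPM on ABA and 4.09, 1.15 and 13.8 RPM on MS, and shares 36.7% of its 22-mers with AT3G27700. The other members were AT5G17980, a protein with C2 domains that had no read in the ABA libraries and in MS library B, and AT1G03610, which encodes a protein of a family without a known function. AT1G03610 had no read on ABA and 1.02, 1.15 and 5.17 RPM on MS. Its call was lost without any 1 ABA library or MS library C (limma adjusted p at most 0.240). AT1G03610 reached 1 RPM only in its MS libraries and LHCB2.3 only in Col-0 libraries, so both passed the filter through Col-0. The ABA pathway itself gave few 22-nt reads. The lists of ABA synthesis, ABA signalling and ABA-responsive marker genes summed to 0.522, 4.43 and 3.89 RPM on ABA and to 2.40, 5.43 and 4.77 RPM on MS. Of their tested members 0 of 2, 0 of 6 and 0 of 5 passed, where 0.702% of all tested loci did. In the marker list the name RAB18 was matched to AT1G43890, annotated as a RAB GTPase homolog, so the ABA-responsive gene of that name is missing. XERO2 and LTI30 are the same locus, entered under both names. Neither AT1G43890 nor that locus had a read in Col-0.

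The MS libraries differed widely at the lower loci. MS library B was the lowest alone at 90.9% of them, against 14.3% of the 2391 tested protein-coding loci whose MS libraries were unequal, and MS library C was the highest at 17 of 22. A library that ties with another is not lowest alone. Ties at 0 are commoner at low level, and 2929 of all tested loci lay under 1 RPM, so the shares compare loci of unlike level. Without MS library C, 8 of 5697 loci passed as lower, against 33 without MS library B, 19 without MS library A, and 11, 13 and 12 without ABA libraries A, B and C. The loci called without each library in turn were REV, PHB, PHV, HB-8, SMXL3, SMXL4, GLT1 and NIA1. With the spread taken from the 6 Col-0 libraries alone, 0 loci passed in either direction, although 926 had an unadjusted p under 0.05, against 908 with all 18 libraries. PHB and PHV had no read in any dcl4-2 dcl2-1 or Col-0 ABA library, so those groups added no spread to their estimates. For PHB the limma adjusted p was 4.62e-08 with all 18 libraries and 0.158 with the 6 Col-0 libraries alone.

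The loci with more 22-nt reads on ABA were of mixed kind: 5 MIRNA genes, 6 loci annotated as pseudogenes, 5 protein-coding loci and a pair of chloroplast-encoded features. Their summed level was 4997, 4286 and 7691 RPM in the ABA libraries, against 1129, 917 and 420 RPM in the MS libraries. All 18 had every ABA library above every MS library, which held for 16.3% of tested loci. These loci were picked for higher values in the same libraries, so a high share is built in. MS library C was the lowest or equal lowest of the MS libraries at all 18.

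**Figure D2:**
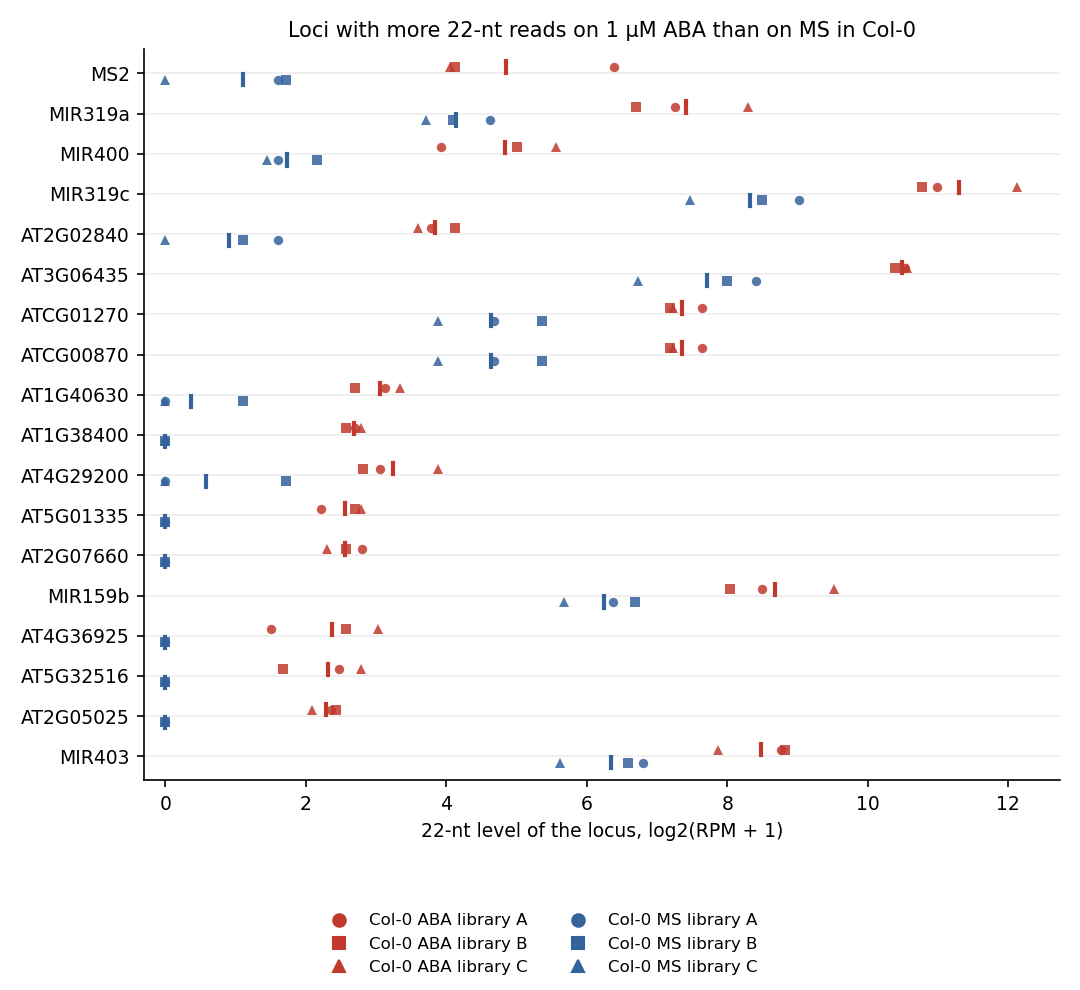
The 22-nt level of each of the 18 higher loci in each Col-0 library, on a log2(RPM + 1) axis; red marks are ABA libraries, blue marks MS libraries, the symbol gives the library (A circle, B square, C triangle) and a vertical bar the mean of 3 log values. MIR319c and AT3G06435 are the most abundant, and 6 loci have no read in any MS library.

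MIR319c (AT2G40805, chr2:17029701-17029899), whose microRNA targets TCP transcription factors of leaf growth, was the most abundant 22-nt locus of Col-0 on ABA. It had 2029, 1745 and 4475 RPM in the ABA libraries, against 517, 358 and 176 RPM in the MS libraries. The lowest ABA library lay far above the highest MS library, and the means of 2750 ± 1501 RPM on ABA and 350 ± 171 RPM on MS gave a ratio of 7.85 and a log2 difference of 2.97 (SE 0.41, limma adjusted p = 7.89e-08). MIR319a (AT4G23713), which gives nearly the same microRNA, had 152, 103 and 313 RPM on ABA, against 23.5, 16.1 and 12.1 RPM on MS (log2 difference 3.28, SE 0.74, limma adjusted p = 0.00715). MIR159b (AT1G18075), whose microRNA targets MYB transcription factors of the GAMYB type, had 359.8, 262 and 732.5 RPM on ABA, against 81.8, 102 and 49.95 RPM on MS (log2 difference 2.44, SE 0.50, limma adjusted p = 0.00193). The groups did not overlap at any of the 3, and the list of MIR159 and MIR319 loci summed to 3433 RPM on ABA and 455 RPM on MS, a ratio of 7.54. The other members did not pass: MIR319b averaged 31.0 ± 22.6 RPM on ABA and 3.13 ± 1.44 RPM on MS (limma adjusted p = 0.0949), MIR159a 8.69 and 5.93 RPM, and MIR159c 3.17 and 0.682 RPM. MIR319c was called without each library in turn. MIR319a was not called without ABA library A or C or MS library C (adjusted p at most 0.204), nor MIR159b without ABA library C or MS library C (at most 0.147).

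MIR403 (AT2G47275), the source of the microRNA that targets AGO2, had 433, 449.8 and 232 RPM on ABA, against 110.4, 95.5 and 48.2 RPM on MS. Even its lowest ABA library lay above the highest MS library, with a log2 difference of 2.14 (SE 0.49, limma adjusted p = 0.00733). MIR400 (AT1G32582), whose microRNA targets PPR genes and which lies inside the gene AT1G32583, had 14.2, 31.1 and 46.4 RPM on ABA, against 2.05, 3.45 and 1.72 RPM on MS (log2 difference 3.10, SE 0.78, limma adjusted p = 0.0244). All of its 81 22-mers are also in that host gene. MIR403 was not called without ABA library A or B or MS library C (adjusted p at most 0.164), and MIR400 was called only with all libraries or without MS library B (otherwise at most 0.248). These were the 2 called members of the list of 22-nt and trigger MIRNA loci, of 8 tested. The 3 most abundant that did not pass were MIR161 (316 ± 47.0 RPM on ABA and 234 ± 126 RPM on MS), MIR168b (122 ± 74.2 and 33.1 ± 13.4 RPM) and MIR168a (103 ± 56.0 and 17.5 ± 8.51 RPM, limma adjusted p = 0.0742). Both MIR168 loci, whose microRNA targets AGO1, had every ABA library above every MS library.

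Families beside these showed smaller differences. Of the 9 MIR165 and MIR166 loci, which give the microRNA of the HD-ZIP site shown above, 0 passed, against 0.702% of all tested loci. These 9 loci summed to 2577 RPM on ABA and 1679 RPM on MS (ratio 1.53, exact permutation p = 0.3). With libraries rescaled to equal MIRNA sums this ratio was 0.711. The most abundant, MIR166e, averaged 743 ± 352 RPM on ABA and 503 ± 159.5 RPM on MS. MIR166f and MIR166g had nearly the same values, and these loci give the same mature microRNA. The MIR156 and MIR157 loci summed to 461 RPM on ABA and 373 RPM on MS (ratio 1.24, or 0.575 with equal MIRNA sums), with 0 of 9 passing. MIR399a, of the phosphate-starvation family, averaged 494 ± 94.9 RPM on ABA and 611 ± 319.3 RPM on MS. The MIR167 loci, whose microRNA matches ARF6 and ARF8, stood at 19.6 RPM on ABA and 18.1 RPM on MS, and the MIR160 loci at 2.47 and 3.58 RPM.

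Of the protein-coding loci on the higher side, AT3G06435 (chr3:1968288-1970946, minus strand), an uncharacterized gene, was by far the most abundant. It had 1477, 1334 and 1511 RPM on ABA, against 341, 254 and 105 RPM on MS. The ABA libraries lay close together, and the log2 difference was 2.78 (SE 0.38, limma adjusted p = 7.89e-08), a call kept whichever 1 library was left out. MS2 (AT3G03780), methionine synthase 2, had 82.6, 16.4 and 15.7 RPM on ABA, against 2.05, 2.3 and 0 RPM on MS. ABA library A carried most of its reads, the log2 difference was 3.75 (SE 0.80, limma adjusted p = 0.00317), and without that library or without MS library C it no longer passed (adjusted p at most 0.151). AT2G02840 (12.8, 16.4 and 11.1 RPM on ABA, 2.05, 1.15 and 0 RPM on MS), AT4G29200, a gene related to beta-galactosidases, and AT4G36925 were the other members, with 1.83 to 16.4 RPM on ABA. AT4G36925 shares 55.7% of its 22-mers with AT2G24945. The chloroplast features ATCG00870 and ATCG01270 had identical reads, 198, 145 and 149.5 RPM on ABA, against 24.5, 40.3 and 13.8 RPM on MS (limma adjusted p = 0.0244 for each, and at most 0.225 with 1 library other than MS library B left out), so they count as 1 signal.

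The 6 higher pseudogene loci were AT1G40630, AT1G38400, AT5G01335, AT2G07660, AT5G32516 and AT2G05025, a biotype under which this annotation also files transposon-derived genes. AT1G38400 had 5.48, 4.92 and 5.88 RPM on ABA and no read on MS, where 3 reads over the group are 1.24 RPM, and was at least 4.39-fold higher on ABA (limma adjusted p = 0.00765), or 2.62-fold without MS library A. AT1G40630 had 7.76, 5.46 and 9.14 RPM on ABA, against 0, 1.15 and 0 RPM on MS (limma adjusted p = 0.0339). The other 4 had 2.19 to 5.94 RPM in the ABA libraries and no read on MS. These are repeated sequences: AT1G40630 shares 22-mers with 227 other loci and AT1G38400 with 89, so a read may belong to a relative. Calls at AT5G01335, AT2G07660 and AT2G05025 were lost whichever 1 of the 6 libraries was left out, that at AT1G38400 without ABA library A or C or MS library C (adjusted p at most 0.0773), and that at AT1G40630 without any but MS library B (at most 0.204).

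By class of locus, MIRNA genes and pseudogenes held more 22-nt RPM on ABA, and protein-coding genes held a smaller share of the total. The summed level over all loci was 23900, 21552 and 31410 RPM on ABA, against 18426, 15886 and 19944 RPM on MS, a ratio of 1.42 (exact permutation p = 0.1). MIRNA genes took 34.3% of it on ABA and 22.8% on MS, with sums of 7485, 6504 and 12393 RPM on ABA against 5065, 3656 and 3639 RPM on MS (ratio 2.13, exact permutation p = 0.1). Without MIR319c that ratio was 1.60. The groups did not overlap, and of 94 tested MIRNA loci 5 were higher and 0 lower, where 0.316% and 0.386% of all tested loci were. The median log2 difference of the 94 was 0.66, against 0.26 over all tested loci.

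Pseudogenes took 29.9% on ABA and 22.9% on MS, with sums of 7176, 6517 and 9327 RPM on ABA against 4743, 3604 and 4094 RPM on MS (ratio 1.85, exact permutation p = 0.1). Of 2457 tested, 660 had every ABA library above every MS library and 17 every ABA library below, which are 26.9% and 0.692%, against 16.3% and 2.95% of all tested loci. The ABA libraries are the deeper ones, and the part of depth in these shares was not tested. Of the 2457, 6 passed the limma test as higher, no larger a share than the 0.316% of all tested loci. The median log2 difference was 0.68. The most abundant were AT1G43750, with 111 ± 22.3 RPM on ABA and 38.3 ± 7.79 RPM on MS, AT1G43740, with 99.04 ± 21.8 and 28.1 ± 6.72 RPM, and AT3G43730, with 62.1 ± 15.9 and 35.8 ± 7.76 RPM. With libraries rescaled to equal MIRNA sums, the ratio for pseudogenes turned to 0.890. That scaling moved the median log2 difference of all tested loci to -0.05, against 0.26 with RPM as deposited, and that of the pseudogenes to 0.29.

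Protein-coding genes took 28.4% of the 22-nt RPM on ABA and 42.7% on MS. Their sums were 7323, 6552 and 7960 RPM on ABA against 6969, 6345 and 9857 RPM on MS, which overlap (ratio 0.942, exact permutation p = 0.9, and 1.09 without MS library C). Without the 22 lower loci, which these same data picked, the ratio was 1.17. Of 2891 tested, 5 were higher and 22 lower, where 0.316% and 0.386% of all tested loci were. The median log2 difference was -0.09. Chloroplast-encoded features had a ratio of 0.828 (exact permutation p = 0.3), and of 0.644 without ATCG00870 and ATCG01270, which these same data picked. The most abundant, ATCG00020, which encodes the D1 protein of photosystem II, averaged 278 ± 71.6 RPM on ABA and 563 ± 123 RPM on MS and did not pass, and ATCG00490, the large subunit of Rubisco, 146 ± 26.3 and 212 ± 25.1 RPM. Mitochondrion-encoded features (ratio 1.1) and the mitochondrial DNA insertion on chromosome 2 (ratio 1.02) had overlapping groups and no locus that passed.

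**Figure D3:**
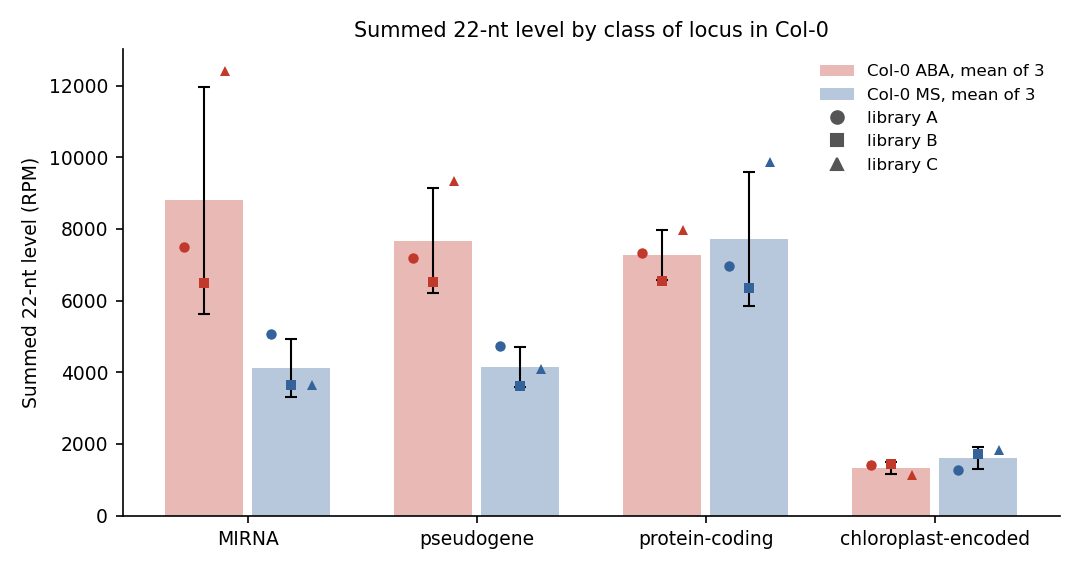
Summed 22-nt level in RPM of 4 classes of locus in Col-0; bars are means of 3 libraries, error bars the SD, and points the libraries (A circle, B square, C triangle), with ABA in red left of MS in blue. MIRNA and pseudogene sums are higher in each ABA library than in each MS library (with equal MIRNA sums the pseudogene ratio is instead 0.890), while protein-coding sums overlap.

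**Figure D4:**
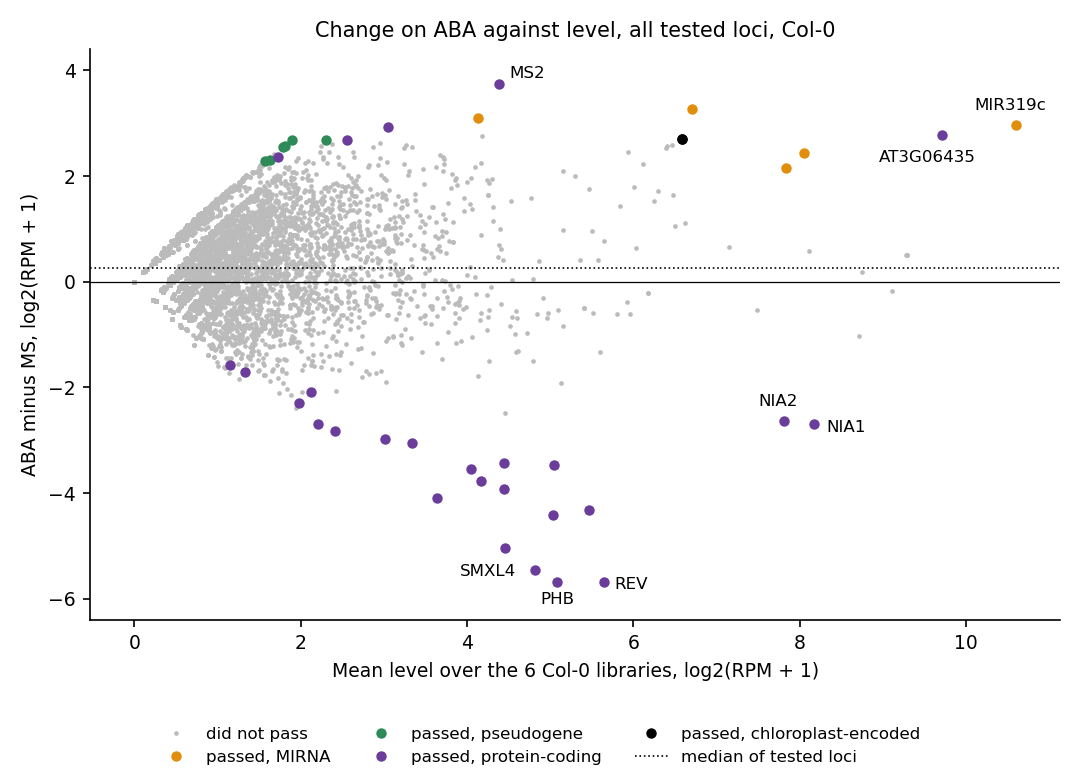
Difference of ABA minus MS in mean log2(RPM + 1) for each of the 5697 tested loci against the mean level over the 6 Col-0 libraries; large points passed the limma test, coloured by class, and the dotted line is the median of 0.26. The lower loci are all protein-coding, and the higher loci at high level are MIRNA genes, AT3G06435 and a pair of chloroplast features.

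With libraries rescaled to equal MIRNA sums, 2 loci passed as higher (7.69% of those called, against 45.0% with RPM as deposited), MIR319c (adjusted p = 0.00266) and AT3G06435 (adjusted p = 0.0132), and 24 passed as lower, among them all 22 named above. This scaling multiplied the Col-0 ABA libraries by 0.514 to 0.979 and the Col-0 MS libraries by 1.26 to 1.75. It shifts loci toward lower on ABA, so the kept lower calls and lost higher calls are in part built in. Without MS library C 2 loci passed as higher, and without ABA library A or C 4 did.

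Whether the ABA effect of a locus in Col-0 differed from that in a mutant was tested directly. Against dcl4-2 dcl2-1, 11 loci (0.193%) had a different effect. Of these, 9 were lower on ABA in Col-0: REV, PHB, PHV, HB-8, SMXL4, SMXL5, GLT1, NIA1 and NIA2. REV had no read in any dcl4-2 dcl2-1 library on either medium, and its difference of effects was -5.69 (log2, SE 1.07, limma adjusted p = 0.000762). For the nitrate reductases the effects ran in opposite directions. In dcl4-2 dcl2-1, NIA1 averaged 513 RPM with ABA against 138 RPM on MS, and the difference of effects was -4.61 (SE 0.53, limma adjusted p = 2.78e-10). MIR319c rose in Col-0 by less than in dcl4-2 dcl2-1, where it had 762, 1469 and 2830 RPM on ABA, against 28.3, 40.4 and 10.5 RPM on MS (difference -2.96, SE 0.58, limma adjusted p = 0.00111). Of the 22 lower loci, 18 had a mean under 1 RPM in dcl4-2 dcl2-1 on MS and 16 on ABA. The shallowest library there held 0.0953 M reads, so a single read was worth 10.5 RPM.

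Against dcl4-2, 15 of 5695 loci (0.263%) differed, 11 of them lower on ABA in Col-0, and NIA1 and NIA2 could not be tested because their library values in dcl4-2 on ABA were not recovered. SMXL4 had 28.6, 77.6 and 141 RPM on ABA in dcl4-2, against 18.1, 16.5 and 19.5 RPM on MS, and the difference of effects was -7.32 (SE 1.12, limma adjusted p = 1.33e-05). REV, PHB, PHV, HB-8 and SMXL5 also passed here, as did AGO2, ARF6, ARF8, ARF10 and AT5G17980. Of the 22 lower loci, 5 had a mean under 1 RPM in dcl4-2 on ABA and 9 on MS, and HB-8, ARF8, ARF10 and AT5G17980 had no read there on MS. With equal MIRNA sums, SMXL4 and HB-8 kept their call against dcl4-2 and the other 9 did not. REV was low on both media in dcl4-2, with 3.10 RPM under ABA against 5.90 RPM on MS. Both tests use the same Col-0 libraries. BAM3, GUN5, SMXL3, TIC, LHCB2.3, MET1, AT1G03610 and AT1G54410 passed neither test, and AT1G54410 alone of the lower loci had positive differences. In dcl4-2 dcl2-1 the dehydrin gene averaged 2.67 RPM with ABA against 73.7 RPM on MS, and in dcl4-2 1.05 RPM with ABA against 39.9 RPM on MS. Its differences of effects were 1.08 (SE 1.14) and 0.98 (SE 1.13), and neither passed (limma adjusted p = 0.826 and 0.918).

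**Figure D5:**
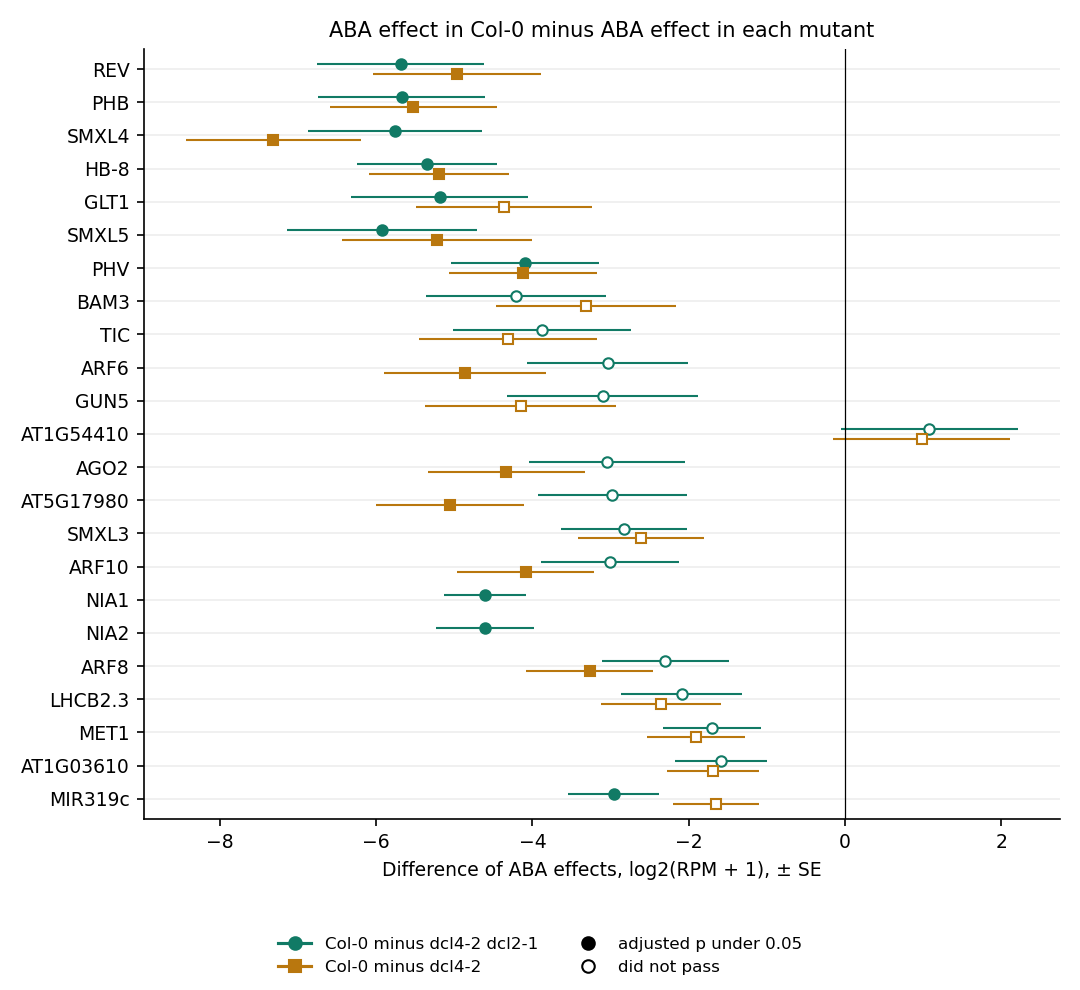
ABA effect in Col-0 minus the ABA effect in dcl4-2 dcl2-1 (circles) or in dcl4-2 (squares) on the log2(RPM + 1) scale, with the SE, for the 22 lower loci and MIR319c; filled points passed the limma test. NIA1 and NIA2 have no value against dcl4-2, and AT1G54410 alone lies above 0.

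The authors' deposited table gives its own test of the same comparison, with an adjusted p for 2026 loci. Of these, 32 (1.58%) were higher on ABA in Col-0 at an adjusted p under 0.05 in the authors' deposited table, and 20 (0.987%) were lower. Of these calls, 10 higher and 15 lower loci also passed the limma test. Of the limma calls, 16 higher and 18 lower loci have an adjusted p in the authors' deposited table. Among the lower loci, ARF6 (authors' adjusted p = 0.152), ARF10 (0.151) and AT5G17980 (0.416) did not pass there. ARF8, MET1, LHCB2.3 and AT1G03610 have no value. None of the higher pseudogene loci passed there, with authors' adjusted p from 0.0507 (AT2G07660) to 0.202 (AT2G05025) and none given for AT5G32516. AT4G29200 (0.117) did not pass either, and AT4G36925 has no value.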

How the data were processed

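Small RNA libraries of 6 Col-0 samples, 3 per group, were compared, out of 18 in the series. Per the submitters' processing notes, which give no roles, the authors used Bowtie 1.2.2, SAMtools 1.9, DESeq2 and the build TAIR10. How adapters, mismatches and reads with several positions were handled is not stated in the labels or headers. The deposited table gives 1 value per locus and group, headed TPM per the file headers. Within a group every deposited value was a sum of whole multiples of 3 fixed steps that were the same for all loci, so no gene length entered, and the values are RPM, as means over 3 libraries. Which library total stands behind these RPM is not stated either. The deposited table also holds the authors' log2 fold changes with p-values and adjusted p-values.

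Reads of single libraries were obtained from each mean as the 3 whole numbers that add up to it. All 32420 loci had 1 solution in both Col-0 groups. In dcl4-2 dcl2-1 on MS 35 loci had several solutions, NIA1, NIA2, MIR159b, MIR403, AT1G54410 and AT3G06435 among them, and the most even was used, which gives the smallest spread. In dcl4-2 on ABA, NIA1 and NIA2 were not recovered, and the fit leaves that group out for them. In all, 622 patterns of reads were shared by at least 2 loci, and 0 had deposited fold changes that differed by over 1e-06. Loci with equal deposited means get equal reads by construction, so this is no check of the split into libraries.

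Tests on log2(RPM + 1) used limma 3.58.1 (R 4.3.3) with a trend in the prior variance, all 18 libraries and 1 mean per group, two-sided, with Benjamini-Hochberg adjustment over all loci tested. Log2 differences on this scale understate changes at low levels, and those of a group at 0 depend on the pseudocount and are no bound. Sums of RPM were compared by a two-sided exact permutation test over libraries. With 3 libraries against 3 this permutation test cannot go below p = 0.1, the value reached when the groups do not overlap. On simulated data for ABA minus MS in Col-0 with 5697 loci, 23% of 4-fold and 93% of 16-fold changes were recovered. There were 13 false calls among 129, a larger share than the threshold on the adjusted p aims at. Recovery was not split by level or by spread between libraries. These rates may therefore not hold for loci at low level or with unequal libraries. Of the tested loci, 2929 had a level under 1 RPM and 1892 a level from 1 to 3 RPM. Limits from a count of 0, taken as 3 reads over a group, cover counting error only. Alternatives were the pseudocount, the filter, the scaling, voom weights, the spread of the compared groups alone, and each library left out. The members, lists and tests were chosen with earlier results of these data known. Named loci are all that passed, the class III HD-ZIP, SMXL and nitrate reductase genes, the 3 with the smallest p and the 3 most abundant without a call of other lists, the most abundant of each class, and the 10 with the smallest p for each difference of effects that also passed in Col-0; BAM3 and other examples follow from these. The list of PPR genes was made from the annotation. Classes, coordinates and sequences are from the RefSeq annotation of TAIR10.1, which matched 31722 loci. TAS loci were not analysed here.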

Additional observations from a re-analysis of the deposited data

Results flagged for a closer look

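At 20 differences over 14 loci named above, the ABA effect (ABA minus MS, log2 scale) differed between Col-0 and a mutant on the limma test of the difference itself, and at 1 further locus, MIR319c, the effect had the same direction and another size. Against dcl4-2 dcl2-1 the effect in Col-0 was lower by a difference of -4.61 for NIA1 (SE 0.53, limma adjusted p = 2.78e-10) and -4.61 for NIA2 (SE 0.62, adjusted p = 1.16e-07), of -5.35 for HB-8 (adjusted p = 6.35e-05), and of -5.67 for PHB and -5.69 for REV (adjusted p = 0.000762 for each). It was -5.76 for SMXL4 and -2.96 for MIR319c (adjusted p = 0.00111 for each), -5.93 for SMXL5 (0.00288), -5.19 for GLT1 (0.00776) and -4.10 for PHV (0.0172).

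Against dcl4-2 the difference was -7.32 for SMXL4 (SE 1.12, limma adjusted p = 1.33e-05), -5.20 for HB-8 (adjusted p = 0.000135), -5.06 for AT5G17980 (0.00082), -5.53 for PHB (0.00131) and -4.97 for REV, -4.87 for ARF6 and -4.09 for ARF10 (0.00691 for each). It was -4.12 for PHV (0.0156), -4.33 for AGO2 (0.0172), -5.22 for SMXL5 (0.0173) and -3.27 for ARF8 (0.0445). The HD-ZIP genes and SMXL4 were at or near 0 on both media in dcl4-2 dcl2-1, so there the effect in Col-0 is set against a locus with almost no reads. In dcl4-2, HB-8, ARF8, ARF10 and AT5G17980 had no read on MS. With equal MIRNA sums the differences to dcl4-2 dcl2-1 kept their calls, while of the 11 to dcl4-2 only those of SMXL4 and HB-8 did. The 2 sets of differences share the Col-0 libraries.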

How the results depend on the processing

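No paired analysis was possible because the deposited columns are group means and the recovered libraries carry no replicate number. Against 18 higher and 22 lower loci in Col-0, log2(RPM + 5) gave 37 higher, a filter of 5 RPM 30 higher, equal MIRNA sums 2 higher, no filter 5 higher and 8 lower, and the spread of the compared groups alone 0 and 0. Leaving out 1 library gave between 2 and 14 higher and between 8 and 33 lower loci. With voom weights, which could not include NIA1 and NIA2, 22 loci were higher and 21 lower, of which 10 and 17 are among those reported, and the median log2 difference was -0.17. For the difference to dcl4-2 dcl2-1 (1 higher in Col-0, which is MIR156a, and 10 lower), the higher count was 2 with the 5 RPM filter, 2 with log2(RPM + 0.5), 5 with voom weights, and 0 with equal MIRNA sums, with no filter or with the compared groups alone. The lower count was 5 with no filter and 6 with the compared groups alone, and leaving out 1 library gave 0 to 3 higher and 6 to 18 lower. For the difference to dcl4-2 (0 higher and 15 lower, with 370 at an unadjusted p under 0.05), equal MIRNA sums gave 3 lower, no filter 3 lower, and voom weights 1 higher and 24 lower. Leaving out 1 library gave 5 to 23 lower. With equal MIRNA sums the ratio of ABA to MS turned to 0.890 for pseudogenes, 0.492 for the insertion on chromosome 2, 0.524 for mitochondrion-encoded features, 0.855 for loci not matched to RefSeq (1.86 with RPM as deposited), 0.575 for MIR156 and MIR157 and 0.711 for MIR165 and MIR166 loci. Leaving out 1 library gave ratios of 0.949 to 1.09 for the insertion, 0.934 to 1.25 for mitochondrion-encoded features and 0.865 to 1.09 for protein-coding genes. Of the 40 called loci, 40 stayed called with median ratio scaling, 38 with log2(RPM + 5) and 30 with log2(RPM + 0.5), and none of the 40 changed direction under these settings or with equal MIRNA sums. With equal MIRNA sums the log2 difference of these loci without a call turned: MIR161 to -0.47, DCL1 to -0.40, SMAX1 to -0.47, AT3G43730 to -0.26, and MIR166e, MIR166f and MIR166g to -0.55 each. The causes were not tested. Loci under about 1 RPM are limited by depth, since that is 1 read in the MS libraries.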

Other observations

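A cluster of PPR genes on chromosome 1 (pentatricopeptide repeat proteins, which process organelle RNA and are known sources of secondary small RNAs) had more 22-nt RPM in each ABA library than in each MS library. Its 24 loci between AT1G62260 and AT1G64583 summed to 434, 395 and 955 RPM on ABA, against 116, 142 and 86.1 RPM on MS (ratio 5.2, exact permutation p = 0.1, or 2.3 with equal MIRNA sums). The 15 tested members all had a positive log2 difference, as 62.5% of all tested loci had, with a median of 1.40 against 0.26 over all tested loci. Of the 15, 11 had an unadjusted p under 0.05, against 15.9% of all tested loci, and 0 of 15 passed the limma test after adjustment. In the authors' deposited table AT1G63400 (authors' adjusted p = 3.95e-05), AT1G62914 (0.000135), AT1G63150 (0.0346) and AT1G63130 (0.0405) were called higher, and no other member was. For AT1G63400 the limma adjusted p was 2.17e-05 with voom weights, 0.0194 with the 5 RPM filter and 0.510 with equal MIRNA sums. AT1G63080 averaged 151 ± 87.4 RPM on ABA and 24.2 ± 13.05 RPM on MS, AT1G63400 146 ± 90.5 and 22.2 ± 9.34 RPM, and AT1G62914 144 ± 85.9 and 22.9 ± 9.88 RPM (SD, n = 3 each). These genes share many 22-mers, up to 669 between AT1G63400 and AT1G62590, so they are not independent. ABA library C was the highest at the cluster, as it was over MIRNA loci.

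Reads in every ABA library and no MS library were found at 551 loci, of which 64.6% were pseudogenes, 30.1% protein-coding and 1.45% MIRNA genes, none above a mean of 5.42 RPM. Of all tested loci, 43.1% were pseudogenes, 50.7% protein-coding and 1.65% MIRNA genes. The opposite pattern was found at 25 loci, 24 protein-coding and 1 pseudogene. The ABA libraries held 5.55 M reads in all and the MS libraries 2.43 M, and the part of this depth in the 551 was not tested.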
